A study of Mus musculus with 40 samples.

Results

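Gene expression in samples labelled as heads of Aey69 mutant mouse embryos was compared between E11.5 and E10.5, embryonic days counted from conception and 1 day apart, with 4 samples at each stage. These 8 samples, chosen by genotype, tissue and age in the sample titles, were 8 of 40 in the series. The Aey69 line arose under the mutagen N-ethyl-N-nitrosourea on the strain C3HeB/FeJ, has small eyes, and carries a change in the histone H3 gene Hist2h3c1 (current symbol H3c14). Both stages shared the mutant genotype, the strain and the absence of treatment, and by the labels differed only in age. The labels do not say whether the embryos carried 1 or both mutant copies. Wild-type littermates of the same strain, 4 at E11.5 and 4 at E10.5, were used only to ask whether the change over the day differed from that of the mutants. The labels call the samples biological replicates, name no litter and give no pooling. RNA was read on Illumina MouseRef-8 bead arrays, and levels are given as log2 of the quantile-normalized signal, on which a difference of 1 is one doubling of signal.

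Between these days the neural tube of the mouse head produces its first large cohort of neurons. Progenitors line the ventricle, leave the cell cycle under proneural factors and begin to make axonal and synaptic proteins. The facial prominences and pharyngeal arches fill with mesenchyme, much of it from neural crest, while the lens vesicle closes and the outer layer of the optic cup gains pigment. Hox genes mark position along the body axis: those of the first paralog groups reach into the hindbrain, and those of later groups are trunk and limb genes, and are not expected in a head.

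Markers of the tissue were read first. Myl2, the regulatory light chain of ventricular myosin, had log2 levels of 3.80, 4.21, 4.48 and 4.01 in the E11.5 samples (numbered 2, 3, 4 and 5 by the authors), against 11.54, 11.74, 11.70 and 11.54 in the E10.5 samples. None of the E11.5 arrays detected it above background, and all of the E10.5 arrays did. Its mean in E9.5 mutants, which were whole embryos, was 11.40. The 4 heart markers (Myh6, Myl7, Myl2 and Nppa) were all undetected on every E11.5 array, with a summed background-subtracted signal of −17 to −2, against 5549 to 6068 in the E10.5 samples. Of the 5 trunk Hox markers, 4 were undetected on all E11.5 arrays, and their sum was −1 to 34 at E11.5, against 1328 to 2443 at E10.5. The E10.5 samples labelled as heads thus held heart and trunk transcripts at about the level of whole E9.5 embryos, so the later age and the other tissue content cannot be told apart in any comparison of these stages. Wild-type E10.5 samples carried them too, with Hoxc6 at 10.01, 10.14, 9.97 and 9.93. Wild types at E11.5 differed among themselves. Sample 4 had heart and trunk genes, with Hoxc6 at 9.92 and Myl2 at 11.04, against 4.00, 4.32 and 4.38 for Hoxc6 in samples 2, 3 and 5. Hox genes of earlier paralog groups reached further: Hoxb5 had 4.85, 7.82, 9.92 and 7.04 in wild-type samples 2, 3, 4 and 5 of E11.5. Of the 10 genes of groups 4 to 8 described below, 0, 5, 10 and 5 were detected in these samples, so that sample 2 alone lacked them all. Markers of the brain were present at both stages: Otx2 of the forebrain and midbrain, and En1 and En2 of the midbrain and hindbrain, were detected on all 8 arrays. In these bulk samples fewer cells of a type and less RNA per cell cannot be told apart.

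**Figure D1:**
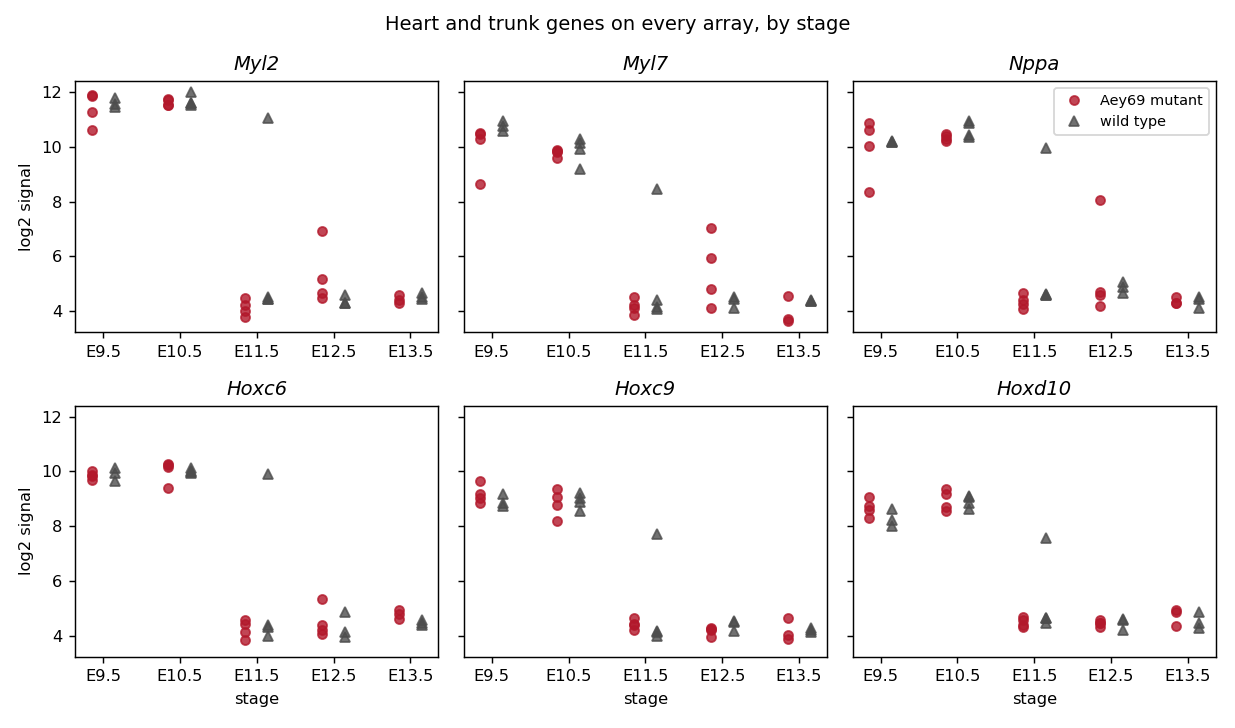
Log2 signal (y axis) of 3 heart genes (Myl2, Myl7, Nppa) and 3 trunk Hox genes (Hoxc6, Hoxc9, Hoxd10) on every kept array, by stage (x axis), with red circles for Aey69 mutants and grey triangles for wild types; each point is 1 array. The 4 mutant E11.5 samples sit at background, and the E10.5 samples lie with the E9.5 whole embryos. Wild-type sample 4 of E11.5 lies with them for Myl2, Nppa and Hoxc6. For Myl7 (8.46), Hoxc9 (7.72) and Hoxd10 (7.58) that sample lies below all E9.5 arrays, though above background.

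The arrays detected 47.4% to 51.8% of the probes in the E11.5 samples and 49.7% to 52.5% in the E10.5 samples. Samples 3 and 4 of E11.5 stood apart from samples 2 and 5. Over all probes samples 3 and 4 correlated at r = 0.994 with each other and samples 2 and 5 at 0.992. Across these pairs r was 0.935 to 0.94. Between stages r ran from 0.856 to 0.96 with a median of 0.9355, so differences within E11.5 were about as large as those between stages. Samples 2 and 5 of E11.5 had 0.96 and 0.958 with E10.5 sample 3, above their values with samples 3 and 4 of E11.5. Samples 3 and 4 lay at −52.5 and −52.6 on the main axis of variation within groups, taken from the 28 arrays of the other groups, against 20.9 and 16.7 for samples 2 and 5. At E10.5, sample 5 lay lowest at −9.90, against 43.9, 31.2 and 14.2 for samples 2, 3 and 4. RNA of blood cells and of RNA-binding proteins moved along this axis, as given below, and leaving out samples 3 and 4 is reported beside the counts.

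Of 9302 named genes detected in at least 3 of 4 samples of a stage, 1038 (11.2%) were higher and 648 (6.97%) lower at E11.5 than at E10.5 at a false discovery rate of 10% (limma, Benjamini-Hochberg over all probes). The 4 values of one stage all lay above the 4 values of the other for 2137 genes (23%), and 1492 of the 1686 called genes were among them. The median log2 change of all detected genes was 0.06. When the arrays were only scaled to a common median, this median moved to −0.16 and the split turned to 618 higher and 1204 lower, or 33.9% higher in place of 61.6%, with 1239 genes called in both and 0 in opposite directions. Without samples 3 and 4 of E11.5, 418 genes were higher and 266 lower, of which 594 were called before. Leaving out sample 2 of E10.5, sample 3 of E11.5 or sample 4 of E11.5 alone gave 826, 879 and 930 called genes. The labels used here give no sex. Of 4 detected sex-linked genes 1 was higher and 0 lower (0 to 2 higher without 1 array, 0 without samples 3 and 4). Eif2s3y changed by 2.53 (limma, adjusted p = 0.0676), Kdm5d by 1.24 (adjusted p = 0.110) and Uty by 0.08 (adjusted p = 0.787). Xist changed by −0.89 (adjusted p = 0.391). Whether the mix of sexes differed between the stages was not tested.

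Of the 15 largest falls among genes whose stages did not overlap, 8 were of heart and muscle, 6 were Hox genes and 1 was Apoa2. In the cardiac list 9 of 11 detected genes were lower at E11.5 and 0 higher, with a median log2 change of −2.90 (−2.80 with undetected genes at their bound), and in the skeletal muscle list 11 of 17 were lower and 0 higher, with a median of −2.33 (−1.99 at the bound). These counts were 9 to 10 and 11 in the 8 fits without 1 array. Nppa, which encodes atrial natriuretic peptide, had 4.08, 4.68, 4.39 and 4.25 at E11.5, against 10.40, 10.22, 10.27 and 10.48 at E10.5. It was not detected on any E11.5 array, so its fall is a bound, at least 35.3-fold lower (adjusted p = 2.41e-08). By the same measure Myl2 was at least 86.2-fold lower (adjusted p = 7.03e-09), the ventricular light chain gene Myl3 at least 47.2-fold, the atrial light chain gene Myl7 at least 23.8-fold, Csrp3, a muscle LIM protein, at least 18.5-fold and the myosin heavy chain gene Myh6 at least 13.4-fold lower. The sets of 4 values did not overlap between stages for any of these genes, which was a condition for a place among the 15 largest falls. Other muscle genes were detected in part. Myl4, an embryonic myosin light chain, had 5.87, 6.45, 6.40 and 5.85 at E11.5, against 11.58, 11.66, 11.95 and 12.01 at E10.5, a log2 change of −5.66 (SE 0.19). Like Myl4, the next pair of genes was detected on all 8 arrays: Actc1, the cardiac actin gene that embryonic skeletal muscle also uses, changed by −5.20 (SE 0.21), and the troponin gene Tnnc1 by −4.24 (SE 0.24). Acta1, skeletal actin, and Ttn, the giant sarcomere protein titin, changed by −3.40 (SE 0.23) and −2.87 (SE 0.23) and were detected on 1 E11.5 array each. Not all skeletal muscle genes fell: in that list 14 detected genes changed below 0 and 3 above 0. Among the skeletal muscle markers, Myog had means of 5.64 at E11.5 and 5.54 at E10.5, and Tnnt1 8.63 and 8.35. Mylpf was lower, with 5.98 and 7.90, as were Actc1 and Acta1, and Myod1 was undetected on all 8 arrays.

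The Hox genes showed the same change by position. Of 38 measured Hox genes 24 were detected, and 20 of these were lower at E11.5 and 0 higher, with a median of −3.00 (−2.38 with undetected genes at their bound). The count stayed at 20 in each fit without 1 array, without samples 3 and 4, and under median scaling. In paralog groups 4 to 8, all 10 detected genes were lower (median −3.88), and 9 of them were undetected on every E11.5 array. Hoxc6 had 4.44, 4.12, 4.58 and 3.83 at E11.5, against 10.26, 10.23, 9.41 and 10.15 at E10.5, at least 28-fold lower (adjusted p = 2.97e-07). Hoxa5 was at least 21.6-fold, Hoxb5 at least 17.7-fold and Hoxb7 at least 12.6-fold lower. In groups 9 to 13, 6 of 9 were lower, among them Hoxd10 at least 13.4-fold. The genes of groups 1 to 3, which the hindbrain expresses, kept a level of their own: 4 of 5 were lower with a median of −1.93, and 3 were detected on all E11.5 arrays. Hoxa2, which patterns hindbrain and pharyngeal arch, had 7.67, 7.38, 7.20 and 7.18 at E11.5, against 8.82, 9.21, 9.31 and 8.59 at E10.5, a log2 change of −1.62 (SE 0.20, adjusted p = 0.00148). Hoxb2 changed by −1.93 (SE 0.19) and Hoxb1 by −2.23 (SE 0.22). In wild types, where 696 of all detected genes (7.43%) were higher and 395 (4.22%) lower at E11.5 than at E10.5, 13 of these 24 Hox genes were lower and 0 higher. In that comparison, E11.5 samples 3 and 5 carried Hox genes of groups 4 and 5, and sample 4 carried those of groups 4 to 8.

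**Figure D2:**
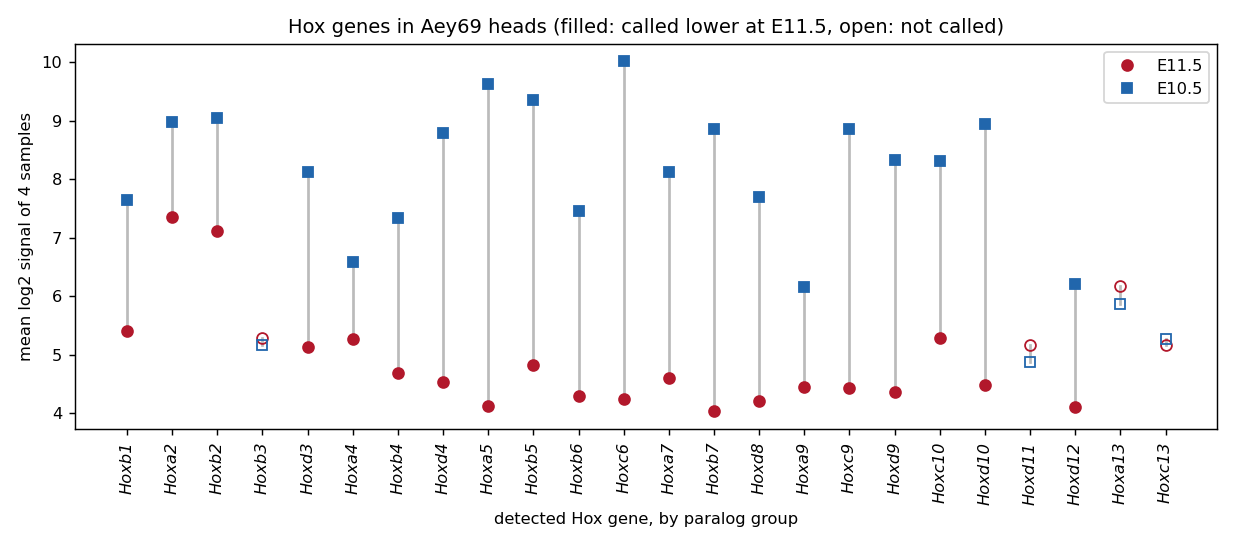
Mean log2 signal (y axis) of the 24 detected Hox genes in Aey69 samples, ordered by paralog group (x axis), with red circles for E11.5 and blue squares for E10.5, means of 4 samples; filled symbols mark the 20 genes called lower. Hoxb1, Hoxa2 and Hoxb2 stayed above background at E11.5, while 9 of the 10 genes of groups 4 to 8 were undetected there.

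Other genes of the body below the head fell with them. Meox1, a homeobox gene of the somites, which form trunk muscle and vertebrae, had 5.29, 6.32, 6.24 and 5.57 at E11.5, against 9.69, 9.23, 9.39 and 9.80 at E10.5, a log2 change of −3.67 (SE 0.25, adjusted p = 1.77e-05). The somite genes Tcf15 and Meox2 changed by −1.83 (SE 0.31) and −1.81 (SE 0.21). Aldh1a2, which makes retinoic acid in trunk mesoderm, changed by −1.02 (SE 0.21). Genes of yolk sac and liver were uneven within E10.5. Apoa2, an apolipoprotein of high-density lipoprotein, had 4.31, 4.31, 4.30 and 4.25 at E11.5, against 12.21, 10.31, 7.07 and 6.27 at E10.5. The E10.5 samples 2 and 3 were high, samples 4 and 5 lower, and all 4 lay above the E11.5 samples (at least 13.6-fold lower, adjusted p = 0.0311). Apoa1, the main protein of the same particle, was likewise high in samples 2 and 3 of E10.5, with 5.57, 5.65, 5.78 and 5.34 at E11.5, against 12.02, 9.5, 5.97 and 7.35 at E10.5, and did not pass the threshold (log2 change −3.13, SE 1.01, adjusted p = 0.104). The summed markers of yolk sac and liver ran from 1066 to 1458 at E11.5 and from 107 to 8155 at E10.5, with Alb undetected on all 8 arrays. The sum at E11.5 came mainly from Ttr, whose mean was 10.23 at E11.5, against 8.76 at E10.5. Apoa1 went the other way, with means of 5.58 and 8.71. Afp was detected on 0 arrays at E11.5 and on 2 at E10.5. In that list 3 of 8 detected genes were lower, 1 to 5 in the fits without 1 array and 0 without samples 3 and 4 of E11.5.

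Genes of postmitotic neurons rose. In this list 20 of 24 detected genes were higher at E11.5 and 0 lower, with a median log2 change of 1.51 (15 to 22 genes higher in the fits without 1 array, 16 without samples 3 and 4, 15 under median scaling). Slc17a6, the vesicular glutamate transporter of early excitatory neurons, had 10.72, 9.25, 9.06 and 10.55 at E11.5, against 5.91, 8.21, 6.52 and 5.66 at E10.5, a 9.98-fold rise (log2 change 3.32, SE 0.56, adjusted p = 0.00843). Syt4, a synaptotagmin of secretory vesicles, had 9.59, 8.49, 8.38 and 9.47 at E11.5, against 5.51, 7.42, 5.38 and 5.04 at E10.5 (8.84-fold, adjusted p = 0.00556). In both genes samples 3 and 4 were the lower pair at E11.5 and sample 3 the highest at E10.5. Both were named among the largest rises without overlap, so their lack of overlap is no separate result. The summed signal of the 8 neuron markers ran from 3226 to 5990 at E11.5, against 554 to 3617 at E10.5, and overlapped. Myt1, a zinc finger factor of differentiating neurons, had 9.90, 9.82, 9.90 and 10.01 at E11.5, against 6.66, 8.47, 7.53 and 7.23 at E10.5 (5.42-fold, adjusted p = 0.00209). Rufy3, a protein of axon specification, had 10.05, 10.08, 10.09 and 9.99 at E11.5, against 6.57, 8.65, 7.23 and 6.55 at E10.5 (6.97-fold, adjusted p = 0.00332). For these genes the E11.5 samples lay close together and the spread was within E10.5.

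Bcl11b, a zinc finger factor of projection neurons and also of skin and teeth, had 9.25, 10.38, 10.38 and 8.63 at E11.5, against 5.65, 7.78, 5.90 and 6.19 at E10.5 (9.71-fold, adjusted p = 0.00543). Mapt, which encodes the microtubule protein tau, had 9.44, 10.13, 10.03 and 8.81 at E11.5, against 5.83, 7.79, 6.12 and 6.77 at E10.5 (7.85-fold, adjusted p = 0.00342). Here samples 3 and 4 were the higher pair at E11.5, unlike for Slc17a6 and Syt4. Other genes rose too. Islr2, an axonal membrane protein, rose 7.46-fold (adjusted p = 0.00293), Dcx, the migrating-neuron protein doublecortin, 4.87-fold (adjusted p = 0.0108), and the tubulin regulator gene Stmn3 by 2.23 on the log2 scale (SE 0.49). Pou6f1, a POU-domain factor, Actl6b, a neuronal subunit of the chromatin remodelling complex BAF, and the synaptic adhesion gene Nrxn3 rose by 2.56, 2.49 and 2.47 on the log2 scale. At E10.5 Actl6b was detected on 1 of 4 arrays, and Nrxn3 and Syt4 on 3. The mean level over the 24 neuron genes was 9.26, 8.70, 8.76 and 9.19 at E11.5, against 6.99, 8.34, 7.36 and 6.77 at E10.5, so that E10.5 sample 3 came nearest to the later stage. The neuron list rose in wild types as well, with 22 genes higher and a median of 1.54.

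**Figure D3:**
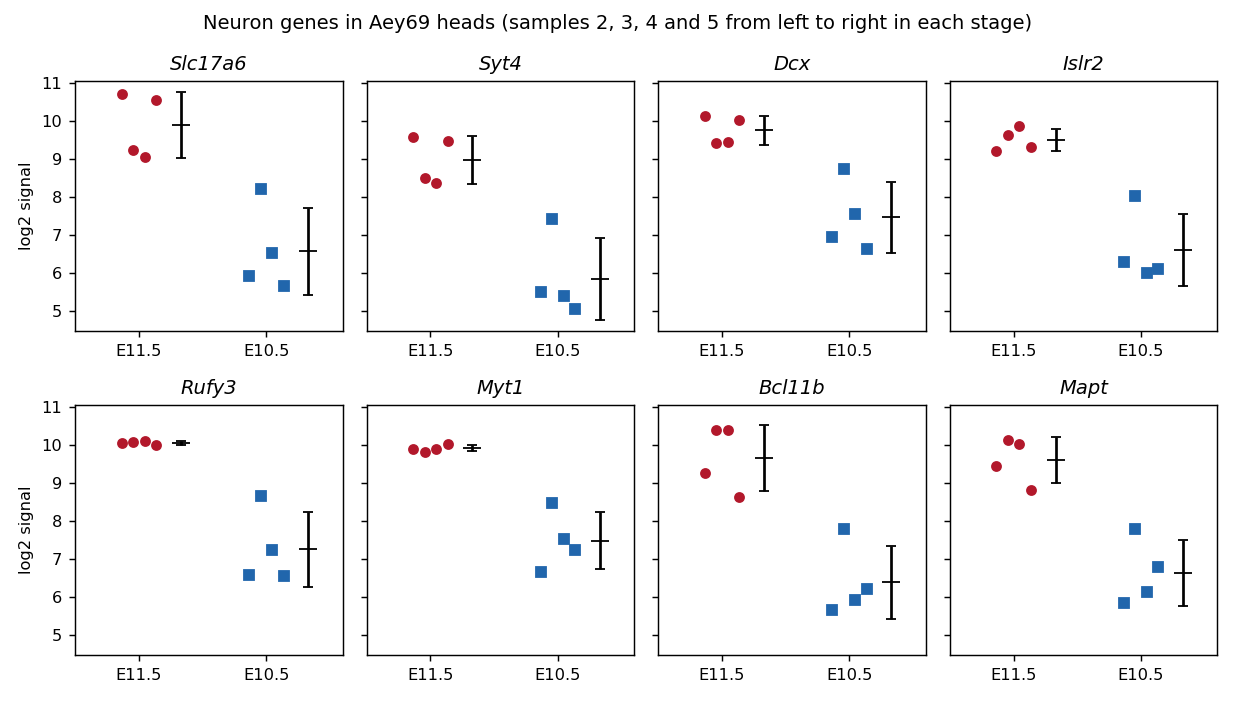
Log2 signal (y axis) of 8 neuron genes in Aey69 samples at E11.5 (red circles) and E10.5 (blue squares), 1 point per sample in the order 2, 3, 4, 5, with the mean and SD of 4 samples as a black bar beside them. All E11.5 values lie above all E10.5 values, which was a condition for naming each of these genes except Dcx. Sample 3 is the highest at E10.5 in each gene.

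Inhibitory neurons and forebrain regions followed. Slc32a1, the transporter that loads GABA into vesicles, had 8.39, 7.99, 7.92 and 8.17 at E11.5, against 4.80, 6.98, 5.24 and 4.46 at E10.5 (6.72-fold, adjusted p = 0.00745), and Gad1, which makes GABA, rose 4.38-fold (adjusted p = 0.00108). At E10.5 Slc32a1 was detected on 2 and Gad1 on 1 of 4 arrays. Where only part of a stage's arrays detected a gene, values below background entered the mean, so that its printed fold is not exact. Of 11 detected genes of the ventral forebrain list 5 were higher and 0 lower (3 to 5 without 1 array), with a median of 0.68. Lhx8, a LIM factor of the ventral telencephalon and of oral mesenchyme, rose by 1.45 (SE 0.22) and Dlx1, a homeobox gene of the same regions, by 1.03 (SE 0.25, adjusted p = 0.0432, and 0.117 without E10.5 sample 2). Of 8 genes of the dorsal forebrain list 4 were higher and 0 lower (1 to 4 without 1 array, 2 without samples 3 and 4). Dmrta2, which patterns the cortical hem and cortex, had 9.40, 9.46, 9.33 and 9.32 at E11.5, against 7.73, 8.20, 8.22 and 8.05 at E10.5 (log2 change 1.33, SE 0.15, adjusted p = 0.00103). Lhx1, expressed in early neurons of brain and cord, rose by 2.58 (SE 0.46). In the midbrain and hindbrain list 2 of 15 were higher and 2 lower (2 and 5 under median scaling), among them Gata2, a factor of midbrain GABA neurons and of blood progenitors, at 1.30 (SE 0.22), and Phox2a, of cranial motor and noradrenergic neurons, at −0.85 (SE 0.20).

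Upstream of the neurons, 6 of 14 proneural and Notch genes were higher and 0 lower (3 to 6 without 1 array, 2 without samples 3 and 4, 3 under median scaling). Hes6, which promotes neuronal differentiation, had 10.55, 10.56, 10.62 and 10.49 at E11.5, against 8.83, 10.10, 9.24 and 9.17 at E10.5 (log2 change 1.22, SE 0.24, adjusted p = 0.0175). Mfng, a glycosyltransferase of Notch, rose by 1.10 (SE 0.15). Of 12 neural progenitor genes 3 were higher and 1 lower, with a median of −0.17 that was above 0 in 6 of 24 alternatives. Nes, the intermediate filament of progenitors, rose by 1.23 (SE 0.18, adjusted p = 0.00426). Sox2, a progenitor factor, had 7.97, 5.53, 5.98 and 7.98 at E11.5, against 8.51, 8.31, 5.29 and 6.32 at E10.5, and the stages overlapped (log2 change −0.24, SE 0.78, adjusted p = 0.896).

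Matrix genes of mesenchyme and craniofacial transcription factors rose in part. The summed signal of the 6 mesenchyme markers overlapped between stages, with 2078 to 2517 at E11.5, against 1690 to 2759 at E10.5. By their means Col1a1, Col1a2, Col3a1 and Prrx1 were higher at E11.5. Lum was lower (8.86 against 9.71), and Dcn had 8.06 against 8.10. In the matrix list 10 of 24 genes were higher and 1 lower (5 to 10 higher without 1 array, 4 without samples 3 and 4), with a median of 0.55. Ogn, a small proteoglycan of connective tissue, had 7.40, 7.40, 7.49 and 7.28 at E11.5, against 4.45, 4.97, 4.2 and 4.68 at E10.5. It was undetected on all E10.5 arrays, and its rise was at least 4.86-fold (adjusted p = 1.07e-05). Lox, which crosslinks collagen, rose by 1.49 (SE 0.24) and the collagen VI gene Col6a1 by 1.33 (SE 0.29). Among craniofacial transcription factors 7 of 22 were higher and 5 lower (4 to 9 and 4 to 5 without 1 array, 3 and 3 without samples 3 and 4). Gsc, a homeobox gene of arch mesenchyme, had 7.75, 8.92, 9.07 and 7.98 at E11.5, against 5.19, 7.65, 5.29 and 5.11 at E10.5 (6.15-fold, adjusted p = 0.0218), where 3 of 4 arrays detected it. Osr2, of the palate and tooth fields, had 8.46, 8.86, 9.02 and 8.19 at E11.5, against 6.03, 7.60, 6.12 and 6.24 at E10.5 (4.39-fold, adjusted p = 0.00636). E10.5 sample 3 was high in both, as in the neuron genes. The members that fell included the somite genes Meox1, Tcf15 and Meox2 described above. Nfix, a nuclear factor of muscle, brain and skeleton, had 7.34, 8.69, 8.46 and 6.79 at E11.5, against 4.91, 6.06, 4.60 and 4.90 at E10.5 (6.49-fold, adjusted p = 0.00720), where 1 of 4 arrays detected it.

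Cartilage, pigment and surface ectoderm changed in part. Sox9, the master factor of cartilage, had 7.70, 7.82, 8.28 and 7.66 at E11.5, against 5.73, 6.26, 6.08 and 7.17 at E10.5 (log2 change 1.56, SE 0.28, adjusted p = 0.0128), while Hapln1, a link protein of cartilage and heart valve matrix, fell by 1.53 (SE 0.21). In this list 5 of 12 genes were higher and 1 lower (3 to 7 higher without 1 array, 1 without samples 3 and 4). Of 5 detected pigment genes 3 rose in every fit without 1 array. Pmel, the melanosome fibril protein, had 7.03, 7.23, 7.31 and 6.48 at E11.5, against 4.80, 5.76, 5.05 and 4.38 at E10.5 (4.04-fold, adjusted p = 0.00358), where 1 of 4 arrays detected it. Gpnmb, a related glycoprotein, rose at least 2.24-fold, and Dct, an enzyme of melanin synthesis detected on 2 of 4 arrays at E10.5, rose by 1.42 (SE 0.31). The other pigment markers, Tyr for the melanin enzyme tyrosinase and its relative Tyrp1, were undetected on all 8 arrays. Of 17 ectoderm and keratin genes 4 were higher and 4 lower. Krt14, of the basal epidermis, had 8.62, 9.31, 9.34 and 8.72 at E11.5, against 6.77, 7.56, 7.14 and 7.41 at E10.5 (3.43-fold, adjusted p = 0.00219), and Krt15, another basal keratin, rose by 0.98 (SE 0.17). Krt8, Krt18 and Krt19, keratins of simple epithelia, changed by −1.43, −1.23 and −0.81 (Krt19 was detected on 2 of 4 arrays at E11.5), and the list had 2 higher and 4 lower without samples 3 and 4.

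Lens and retina were at the edge of detection. Of 19 crystallin genes 7 were detected, with 2 higher and 1 lower. Cryab, a small heat shock protein that lens, heart and muscle share, had 5.29, 5.65, 5.72 and 5.44 at E11.5, against 7.27, 6.81, 7.11 and 7.04 at E10.5 (log2 change −1.53, SE 0.16, adjusted p = 5.68e-04). Cryba1, a lens fibre protein, had 5.97, 5.92, 5.78 and 6.24 at E11.5, against 5.06, 5.52, 5 and 4.97 at E10.5 (log2 change 0.84, SE 0.17, adjusted p = 0.0217), where 1 of 4 arrays detected it. Crym, a thyroid hormone binding protein of brain as well as eye, rose by 1.04 (SE 0.23). The lens markers Cryaa, Crygd and Foxe3 were undetected on all 8 arrays, as were the probes of Pax6 and Pitx3, factors of eye and brain and of the lens. The neuron marker Nefl was undetected on all 8 arrays too, while the neuron marker Stmn2 had a mean of 10.88 at E11.5. Whether the undetected probes report their RNA was not tested, so these values do not show that the RNA was absent. Prox1, of lens and neurons, changed by 0.51 (SE 0.17, adjusted p = 0.123) and Otx2, of forebrain and retinal pigment epithelium, by 0.43 (SE 0.33, adjusted p = 0.498). Six3 of the eye field changed by 0.68 (SE 0.25, adjusted p = 0.152). In the eye field and optic cup list 3 of 12 were higher and 0 lower (1 to 4 without 1 array), one being Aldh1a1, a retinoic acid enzyme of the dorsal retina, which rose at least 1.79-fold (adjusted p = 0.00340).

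Of 11 genes of early embryonic growth, 5 fell and 0 rose (2 to 5 lower without 1 array, 3 without samples 3 and 4). Lin28a, an RNA-binding protein that keeps cells at an early developmental state, had 5.03, 5.11, 5 and 5.19 at E11.5, against 8.16, 6.55, 7.10 and 8.37 at E10.5 (5.52-fold lower, adjusted p = 0.00362), and was detected on 1 of 4 arrays at E11.5. Sall4, a zinc finger factor of early embryo and limb, had 7.70, 8.47, 8.63 and 8.04 at E11.5, against 9.98, 9.25, 10.03 and 10.55 at E10.5 (3.34-fold lower, adjusted p = 0.00764). Hmga2 of this list, a chromatin protein of growing embryonic tissue, changed by −0.14 (SE 0.18, adjusted p = 0.708). Among imprinted growth genes 5 of 14 were lower and 1 higher (3 to 6 and 0 to 2 without 1 array, 2 and 0 without samples 3 and 4). Phlda2, which restrains placental growth, was at least 4.28-fold lower (adjusted p = 0.0140) and Dlk1, a Notch family ligand, fell by 0.78 (SE 0.17), while Nnat, a neuronal imprinted gene, changed by 1.15 (SE 0.73, adjusted p = 0.406). Of 20 glycolysis and hypoxia genes 8 were lower and 0 higher (5 to 7 without 1 array, 3 without samples 3 and 4). Slc2a3, a high-affinity glucose transporter, had 9.95, 9.84, 9.79 and 9.85 at E11.5, against 11.97, 10.58, 11.28 and 11.76 at E10.5 (2.91-fold lower, adjusted p = 0.00942). Under median scaling 11 genes of this list were lower. Slc2a1, the main embryonic glucose transporter, and Pdk1, which turns pyruvate away from the mitochondrion, changed by −1.05 (SE 0.17) and −1.17 (SE 0.24).

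Cell cycle genes split. Of 27 detected genes of DNA replication and mitosis 7 were lower and 0 higher (3 to 7 lower without 1 array, 1 without samples 3 and 4, 14 under median scaling), with a median of −0.46. Ccne1, a cyclin of S-phase entry, had 7.66, 7.58, 7.40 and 7.63 at E11.5, against 8.86, 8.44, 8.54 and 8.29 at E10.5 (log2 change −0.97, SE 0.16, adjusted p = 0.00779), and Cdc6, which loads replication origins, fell by 0.86 (SE 0.18). Other genes moved with the pair of samples that stood apart and did not pass: Ccne2 had 8.05, 4.77, 4.91 and 7.95 at E11.5, against 8.95, 8.08, 8.39 and 6.71 at E10.5, and Cdk1, the mitotic kinase, had 10.49, 8.91, 8.62 and 10.55 at E11.5, against 11.36, 10.41, 10.95 and 10.53 at E10.5. Of 14 D cyclins and cell cycle inhibitors 5 were higher and 0 lower (2 to 5 without 1 array, 3 without samples 3 and 4), a split that became 1 and 1 under median scaling. Ccnd2, a D cyclin of neural progenitors, was higher in all 4 E11.5 samples than in any E10.5 sample (log2 change 1.37, SE 0.27, adjusted p = 0.0193).

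Blood genes did not give a called shift. The mean over 20 globin and erythroid genes was 8.61, 6.60, 6.64 and 8.88 at E11.5, against 9.12, 9.28, 9.25 and 7.48 at E10.5. Samples 3 and 4 of E11.5 and sample 5 of E10.5 were low, and the stages overlapped. Hbb-y, the embryonic beta-like globin, had 14.15, 10.63, 10.78 and 14.01 at E11.5, against 14.08, 13.99, 14.06 and 12.21 at E10.5 (log2 change −1.19, SE 0.82, adjusted p = 0.447). The list median of −1.07 moved to −0.19 without samples 3 and 4 and to 0.04 with the axis score as a covariate, and 0 genes were higher and 1 lower, against 0 to 10 lower in the fits without 1 array. Hba-a1, an adult alpha globin, changed by −1.41 (SE 0.83) and Alas2, the erythroid enzyme of heme synthesis, by −2.42 (SE 1.08), and neither passed. The same samples were low in RNA-binding and translation genes, whose mean level was 10.70, 9.65, 9.68 and 10.62 at E11.5, against 11.07, 10.90, 10.39 and 10.34 at E10.5. Hnrnpk of this list, an RNA-binding protein, had 10.72, 7.08, 6.80 and 10.30 at E11.5, against 11.47, 11.07, 10.57 and 9.34 at E10.5. Of 22 endothelial genes 3 were lower and 0 higher (2 to 4 without 1 array, 0 without samples 3 and 4, 8 under median scaling), among them the angiopoietin receptor gene Tek at −0.87 (SE 0.17) and Sox18 at −0.75 (SE 0.16). Macrophage markers were not detected by the filter at either stage, and of 9 detected leukocyte genes only Aif1 was called, at 0.71 (SE 0.15).

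Probe signals of replication-dependent histone genes, which are transcribed in S phase and supply histones for new DNA, were in part higher at the later stage in the mutants. How well the amplification captured the RNA of these genes was not tested, so the values are given as probe signals only. The DNA replication and mitosis list had a median of −0.46 over the same day. Of 35 detected H1, H2A, H2B and H4 genes 18 were higher at E11.5 and 0 lower, with a median of 0.74 (9 to 23 genes higher without 1 array, 8 without samples 3 and 4, and 11 higher and 1 lower under median scaling). With the axis score as a covariate 13 were higher and 0 lower, with a median of 0.48. The list mean was 8.46, 8.8, 8.78 and 8.36 at E11.5, against 7.6, 7.85, 7.81 and 8.09 at E10.5. It was highest in samples 3 and 4 of E11.5 and, at E10.5, in sample 5. In wild types 1 was higher and 2 lower, with a median of −0.18. Of 10 detected H2B genes 8 were higher, of 12 H2A genes 1, and of 10 H4 genes 7. The sequences before the start sites of the 3 H2B genes whose change differed between genotypes are shown because the genes moved together. They are the 250 bases before each RefSeq start (GRCm38.p6), 5′ to 3′ on the gene's strand, at chr13:23574208-23574457 (minus strand) for H2bc7, chr13:23543445-23543694 (minus strand) for H2bc9 and chr13:23746484-23746733 (plus strand) for H2bc3. Capitals mark CCAAT, the TATA motif TATAAA, the octamer ATTTGCAT known from H2B promoters, and ATTTGAAT, which differs from it by 1 base and was chosen after the sequences were seen, all on either strand.
H2bc7: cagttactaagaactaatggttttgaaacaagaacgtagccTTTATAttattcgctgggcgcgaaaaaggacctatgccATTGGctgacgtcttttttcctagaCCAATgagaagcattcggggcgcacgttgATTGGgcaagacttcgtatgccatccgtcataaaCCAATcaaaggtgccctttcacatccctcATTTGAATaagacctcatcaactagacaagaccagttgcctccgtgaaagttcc
H2bc9: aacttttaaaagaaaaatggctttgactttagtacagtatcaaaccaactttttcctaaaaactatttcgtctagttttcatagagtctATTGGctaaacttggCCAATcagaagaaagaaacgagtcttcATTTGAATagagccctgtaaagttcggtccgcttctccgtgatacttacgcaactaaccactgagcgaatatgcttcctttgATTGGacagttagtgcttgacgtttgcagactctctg
H2bc3: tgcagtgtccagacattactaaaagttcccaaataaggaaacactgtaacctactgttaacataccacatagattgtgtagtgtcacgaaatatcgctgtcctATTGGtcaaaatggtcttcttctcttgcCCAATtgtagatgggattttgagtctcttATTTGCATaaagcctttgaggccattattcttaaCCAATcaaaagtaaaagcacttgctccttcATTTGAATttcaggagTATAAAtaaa
ATTTGAAT stood in all 3 windows and the octamer in that of H2bc3. Of 10 promoter entries that 9 of the detected H2B genes had, 5 held the octamer, 5 held ATTTGAAT and 10 held CCAAT, against 1.6%, 1.12% and 33.8% of all 32851 RefSeq promoters of this length. The count for ATTTGAAT includes the 3 windows from which it was chosen. Of the 8 H2B genes with the octamer or ATTTGAAT 7 were called, and H2bc15 was called with neither. These 7 include the called genes H2bc7, H2bc9 and H2bc3, from whose windows ATTTGAAT was chosen. Whether either motif goes with a call was therefore not tested. In the 12 H2A promoters 4 held the octamer, 4 ATTTGAAT and 12 CCAAT, and all 8 H2A genes with the octamer or ATTTGAAT were uncalled. In the 9 H4 promoters these numbers were 0, 0 and 2. H2ac7 and H2bc7 each held ATTTGAAT and 4 CCAAT, and H2ac11 and H2bc11 each held ATTTGAAT and 5 CCAAT. Whether H2A and H2B windows share bases was not tested, so their counts may not be separate. A match is a description of the letters and not a site.

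Across all probes, the change over the day differed between mutants and wild types for 8 of 13874 detected probes (limma interaction over the 16 samples labelled as heads), 7 with a more positive change in mutants (0.0505%) and 1 with a more negative one (0.00721%), and for 544 at an unadjusted p under 0.05. Histone genes held 6 of the 7. H2bc7 had 10.55, 11.31, 11.24 and 10.84 in mutants at E11.5, against 9.49, 9.45, 9.21 and 9.54 in mutants at E10.5, a 2.96-fold rise (log2 change 1.56, SE 0.19, adjusted p = 0.00150). In wild types it had 9.71, 8.86, 9.36 and 8.86 at E11.5, against 10.13, 9.17, 10.23 and 10.44 at E10.5, a log2 change of −0.80 (SE 0.28, adjusted p = 0.170). The mutant stages did not overlap, and in wild types the values overlapped because E10.5 sample 3 was low. The change differed by 2.36 between mutants and wild types (SE 0.36, adjusted p = 0.0574). H2bc9 had 9.78, 10.48, 10.33 and 10.12 in mutants at E11.5, against 8.63, 8.46, 8.51 and 8.84 in mutants at E10.5, and its change exceeded that of wild types by 2.26 (SE 0.35). H2bc3 had 6.44, 6.99, 6.82 and 6.65 at E11.5, against 5.51, 5.36, 5.70 and 5.58 at E10.5 in mutants, with a difference from wild types of 1.62 (SE 0.27). The H4 genes H4c12 and H4c18 differed by 1.54 (SE 0.25) and 1.52 (SE 0.26). H4c18 in mutants alone changed by 0.64 (SE 0.19, adjusted p = 0.0829) and lost its call in 5 of the 8 fits without 1 array, with adjusted p up to 0.216. H2bc11 and H2bc15 rose by 1.47 (SE 0.22) and 1.39 (SE 0.20) in mutants, and their differences from wild types of 2.02 and 2.17 did not pass (adjusted p = 0.106 and 0.163).

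H3c14, the mutated histone gene, has a pair of probes. The brighter one had 10.41, 10.06, 10.28 and 10.21 in mutants at E11.5, against 10.22, 10.35, 10.40 and 10.07 in mutants at E10.5, with a log2 change of −0.02 (SE 0.14, adjusted p = 0.954) that turned above 0 in some alternatives. The dimmer one had 6.07, 7.25, 7.02 and 6.43 at E11.5, against 5.31, 5.57, 5.24 and 5.49 at E10.5, a change of 1.29 (SE 0.25, adjusted p = 0.0149), and differed from wild types by 2.02 (SE 0.35, adjusted p = 0.0842). The probes of this gene disagree, and the near-identical coding sequences of H3 genes leave the source of either signal uncertain. Of 12 H3 genes 3 were higher and 0 lower (0 to 2 higher without 1 array, 0 without samples 3 and 4), with a median of 0.17. Under median scaling 0 were higher and 1 lower, and the median was below 0.

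**Figure D4:**
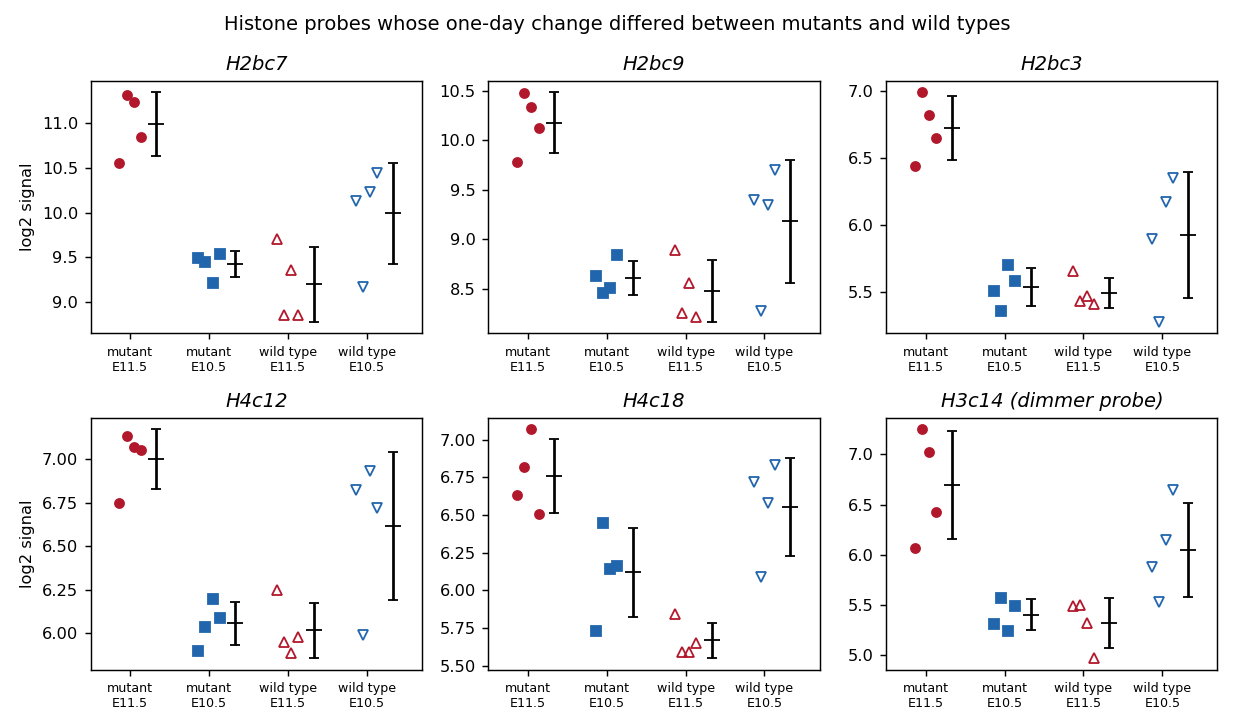
Log2 signal (y axes, which differ between panels and do not start at 0) of 6 histone probes in mutants at E11.5 and E10.5 (filled symbols) and wild types at E11.5 and E10.5 (open symbols), 1 point per sample in the order 2, 3, 4, 5, with the mean and SD of 4 samples as a black bar. The mutant E11.5 values lie above the mutant E10.5 values in all 6 panels, while wild types at E10.5 are higher on average than wild types at E11.5.

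The other probe with a more positive change was that of Rnu6, annotated to the U6 small nuclear RNA of the spliceosome, with 11.66, 11.82, 11.53 and 11.93 in mutants at E11.5, against 11.15, 10.98, 10.61 and 10.97 in mutants at E10.5, a difference from wild types of 1.56 (SE 0.25). How well the amplification captured the RNA of Rnu6 was not tested either. The 1 probe with a more negative change has no gene name here and had 4.16, 4.21, 3.88 and 4.17 in mutants at E11.5, against 7.16, 5.55, 7.08 and 6.67 in mutants at E10.5. It was undetected on all mutant arrays at E11.5, at least 2.67-fold lower than at E10.5, while in wild types it lay between 7.90 and 8.87 at both stages. Without wild-type sample 4 of E11.5, which had heart genes and the most Hox genes, 0 probes passed in limma and 310 had an unadjusted p under 0.05, with the difference for H2bc7 at 2.41 (adjusted p = 0.160). Without mutant samples 3 and 4 of E11.5, 0 passed and 259 had an unadjusted p under 0.05. Of the 16 fits without 1 sample, 12 called 0 probes, the H2bc7 call stood in 3, and its difference ran from 2.21 to 2.64. Erdr1, a multicopy gene of the pseudoautosomal region, had 4.95, 5.03, 5.62 and 4.89 in mutants at E11.5, against 7.43, 5.44, 7.41 and 8.21 in mutants at E10.5 (log2 change −2, SE 0.48, adjusted p = 0.0388, and 0.119 without E10.5 sample 2 or 0.102 without E11.5 sample 3). It was detected on 1 of 4 mutant arrays at E11.5. Sample 4 of E11.5 lay above sample 3 of E10.5, so the stages overlapped, and wild types ran from 8.33 to 10.36. Its difference from wild types of −2.30 (SE 0.67) did not pass (adjusted p = 0.911).

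The signalling and stress lists are given by their counts. Of 28 Wnt genes 5 were higher and 2 lower (1 and 0 without samples 3 and 4, 4 and 3 under median scaling), Wnt7b, a ligand of forebrain and surface ectoderm, rising by 1.86 (SE 0.34, adjusted p = 0.0130). Of 23 BMP and TGF-beta genes 2 were higher and 1 lower (0 and 1 without them, 2 and 3 under median scaling), with Inhba, an activin subunit, rising by 1.46 (SE 0.33, adjusted p = 0.0321) and detected on 1 of 4 arrays at E10.5. In FGF and hedgehog signalling 15 and 6 genes were detected and 0 were called by limma, with 2 and 0 at an unadjusted p under 0.05; under median scaling 3 FGF genes were lower. Of 19 genes of p53 and apoptosis 1 was higher and 2 lower, of 20 immediate early genes 4 were higher and 5 lower, of 19 chaperones 0 were higher and 3 lower, and of 22 RNA-binding and translation genes 0 were higher and 3 lower. Without samples 3 and 4 these 4 counts were 1 and 0, 1 and 0, 0 and 0, and 0 and 0, and under median scaling 8 chaperones were lower. Cranial ganglia and neural crest glia had 2 of 9 genes higher and 0 lower (1 and 0 without them), with Tfap2b, a crest and ganglion factor, at 1.48 (SE 0.28) and the neurotrophin receptor gene Ntrk3 at 0.89 (SE 0.18).

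**Figure D5:**
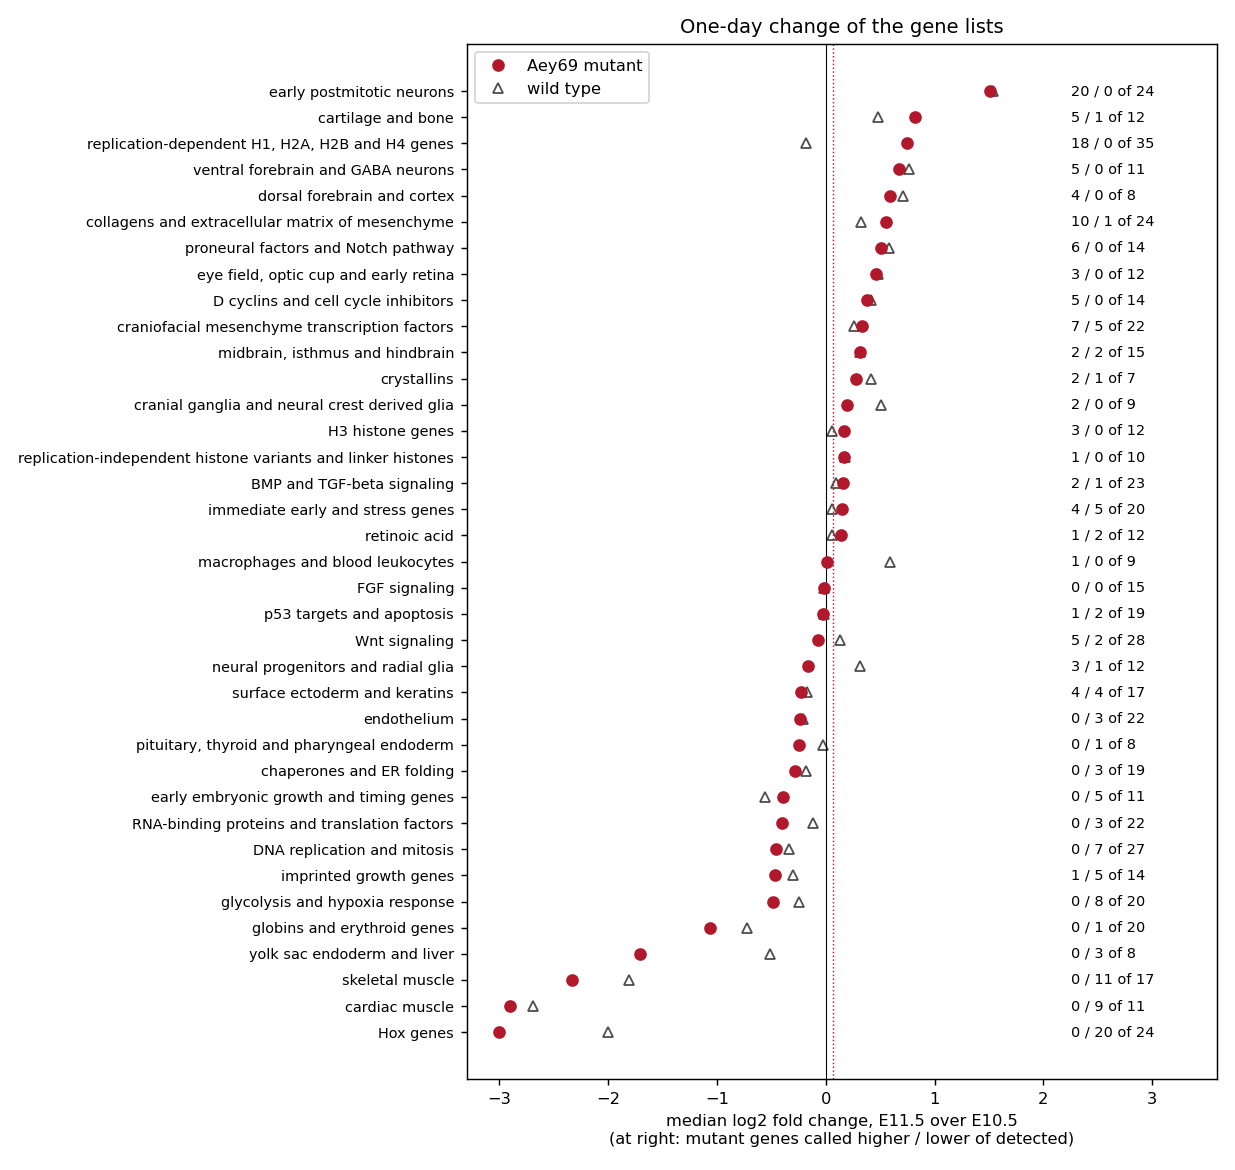
Median log2 fold change, E11.5 over E10.5 (x axis), of each gene list with at least 7 detected genes (y axis), with red circles for Aey69 mutants and open triangles for wild types, which share no arrays; the dotted line is the median of all detected genes in mutants, 0.06, and the text at right counts mutant genes called higher / lower of those detected. Neuron genes lie highest and Hox and cardiac genes lowest in both genotypes, and the replication-dependent histone list is at 0.74 in mutants and −0.18 in wild types.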

How the data were processed

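RNA amplified with the Illumina TotalPrep kit was hybridized by the authors, who subtracted background in GenomeStudio. The deposited table holds that signal intensity and a detection p-value per probe. The authors' quantile-normalized intensity values served as an alternative. Here an offset of 22 was added, 36 arrays were quantile-normalized (the authors had excluded 4 of 40) and put on a log2 scale, and stages were compared in limma 3.58.1 (R 4.3.3) over 25697 probes, 23978 of them named. The filter, applied after the fit, required detection p-values below 0.05 on 3 or more of the 4 arrays of either stage. A gene is its brightest probe. For genes undetected on all arrays of a stage, folds are lower bounds against the lowest detected signal of each array. Sample numbers are the authors' column numbers, not the title's replicate numbers. Members and gene lists were chosen with earlier results of these data known. Genes named are the 15 largest non-overlapping calls per direction, up to 5 per list and per direction of the genotype difference, fixed eye, histone and growth genes, and markers. Hoxa2, Hoxb1, Hoxb2, H4c12 and H4c18 were chosen after their values were seen. Those described as changed kept their call in each of the 8 fits without 1 array, except where stated. No separate litters are named, so p-values measure the spread between these samples. The number of arrays limits precision. Procedures were tested on simulated data. A further change carried by the line is not reported here.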

Additional observations from a re-analysis of the deposited data

Results flagged for a closer look

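Single samples stood away from the other 3 of their stage by Dixon's criterion, which flags about 1 in 20 groups by chance. The flags come from a screen of many genes and lists, and whether they exceed that rate was not tested. In E10.5 sample 3 the high values were Islr2 at 8.02, Gsc at 7.65, Osr2 at 7.60, Cryba1 at 5.52 and Inhba at 5.29. In E10.5 sample 5 the low values were Hbb-y at 12.21, Hba-a1 at 12.92, Alas2 at 7.95 and the mean of the erythroid list at 7.48, and the endothelial list was high at 8.41. In E10.5 sample 4 Hoxc6 was low at 9.41 and Hmga2 at 4.72. In E11.5 sample 5 Actl6b was low at 7.48 and Gpnmb at 5.78.

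The change over the day differed between mutants and wild types, by the interaction term over 16 samples, for H2bc7 (2.36), H2bc9 (2.26), H2bc3 (1.62), H4c12 (1.54), H4c18 (1.52), the dimmer probe of H3c14 (2.02), Rnu6 (1.56) and 1 probe with no gene name (−2.61 as fitted, not an exact size, since all 4 mutant arrays at E11.5 left it undetected). The values are mutant minus wild type, in log2 units. The part that the composition of the E10.5 samples and of wild-type samples 3, 4 and 5 of E11.5 has in them was not tested beyond the fits without 1 array. Without any one of those 3 wild-type samples 0 probes passed in limma, with 662, 310 and 704 at an unadjusted p under 0.05.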

How the results depend on the processing

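For the mutants' 1686 called genes, leaving out 1 array gave 826 to 1758, the 36-array model 2954, a false discovery rate of 5% 1022, and an unadjusted p under 0.05 3145. After seeing the data, both E11.5 samples 3 and 4 were left out (684 genes), and E10.5 sample 5 with them (708). For the wild types' 1091 genes the values were 515 to 1573 without 1 array, 685 at 5% and 2386 unadjusted. For the 8 probes of the genotype difference they were 0 to 12 without 1 array, 0 with normexp background, 0 at 5%, 1 in the 36-array model, 0 without samples 3 and 4, and 544 unadjusted. With the replicate number as a block, on the authors' processed values, 1056 genes of the mutants, 1233 genes of the wild types and 0 probes of the difference passed. Same-numbered replicates deviated together at r = 0.59, −0.24, −0.02 and −0.69, and 1 of 4 correlated best with its own number. So few values cannot show whether samples of 1 number shared a litter or a batch. The slide as a block was not run, since the file headers used here name none.

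Over 111 named genes and 24 alternatives, 2560 values kept direction and call, 52 lost the call, 32 gained it and 20 changed sign, all in genes that had not passed. Without 1 array, Sox2 ran from −0.85 to 0.23, H3c14 from −0.0837 to 0.038 and Pax6 from −0.0840 to 0.19. Without samples 3 and 4, Sox2 was at 0.87, H3c14 at 0.049, Hbb-y at 0.49 and Hba-a1 at 0.38. With E10.5 sample 5 out too, Sox2 was at 0.61, Hbb-y at 0.036 and Hba-a1 at 0.047. With the axis score as a covariate, Sox2 was at 1.07, H3c14 at 0.062, Hbb-y at 0.42 and Hba-a1 at 0.21. The cause was not tested. Without samples 3 and 4 the calls of Apoa2, Gsc, Hes6, Col6a1, Tfap2b, Ntrk3, Crym, Dlk1, H4c18, Cdc6, Ccnd2, Pdk1, Tek, Sox18, Aif1, Erdr1, Wnt7b and Inhba were lost. Low signal limits the genes near background.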
